A study of Mus musculus with 4 samples.

Results

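The telomere maintenance genes Tert, Terf1, Terf2, Terf2ip, Tinf2, Acd, Pot1a, Pot1b, Rif1 and Rtel1 were examined in F123-ESCs. They are the 10 rows with these MGI symbols among the 24026 genes of the deposited table, and all 10 were listed and had at least 1 RPKM in both alleles together. RPKM are reads scaled by gene length and by the total of mapped reads. F123-ESCs are a male hybrid embryonic stem cell line of the genotype S129/CAST, in which reads that cover a SNP can be assigned to the maternal S129 or the paternal CAST allele. The cells were untreated, had been grown on feeder fibroblasts with LIF and were then passaged without feeders before harvest. RNAseq of polyA-enriched RNA gave 4 libraries, replicates 1 to 4, each with an S129 and a CAST value per gene. All libraries come from a single line in a single condition, so the alleles are the only groups that can be compared, and nothing in the labels says whether the libraries came from separate cultures.

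Telomeres are the repeat-bearing ends of chromosomes, which shorten when DNA is copied and which cells must hide from the machinery that repairs broken DNA. Telomerase, a reverse transcriptase that carries its own RNA template, adds repeats back, and shelterin, a protein complex that sits on the repeats, protects the end and controls telomerase. Embryonic stem cells, unlike most somatic cells, keep telomerase active.

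From 34120416 to 56627972 reads per library had been assigned to an allele, of which 50.8% to 51.0% were S129 reads. All 8 markers of embryonic stem cells were expressed, with means from 29.5 to 7111 RPKM, and 6 of 8 feeder fibroblast markers had at least 1 RPKM. The summed level of the feeder list was 180 to 227 RPKM over the libraries, mostly Col1a2 at 166 RPKM. Postn was at 15.4 RPKM, Col3a1 at 11.4, Col1a1 at 5.68, Pdgfrb at 2.18 and Thy1 at 1.57. Under 1 RPKM were Dcn at 0.659 RPKM and Lum at 0.0462 RPKM. Of 4 markers of primitive endoderm, Pdgfra at 3.31 RPKM and Gata4 at 1.03 RPKM had at least 1 RPKM. Sox17 at 0.326 RPKM and Sox7 at 0.273 RPKM were under it. The marker levels are as deposited and were not recomputed with other gene lengths, so levels of different markers and their sum depend on those lengths. The part of feeder cells in the values below was not tested.

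The largest difference between the alleles was that of Pot1a, which was 2.62-fold higher on S129. Tert, Terf2, Acd and Rif1 were higher on CAST by 1.16-fold to 1.34-fold, and the other 5 genes did not pass the test. In all, 1 of 10 genes was called higher on S129, where 31.4% of the 13341 genes tested were (28.9% of those on autosomes, where all 10 lie), and 4 of 10 were called higher on CAST, where 31.3% were (32.5% on autosomes). Either direction was called in 50.0% of the telomere genes and in 62.7% of the genes tested, or 61.4% of those on autosomes. The median S129 minus CAST difference of the 10 genes was -0.05 on the log2(RPKM+0.1) scale, against -0.02 for autosomal genes. The median of the absolute differences was 0.17, against 0.29 for autosomal genes. Called means an adjusted p under 0.05 from limma on the differences within each library.

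**Figure D1:**
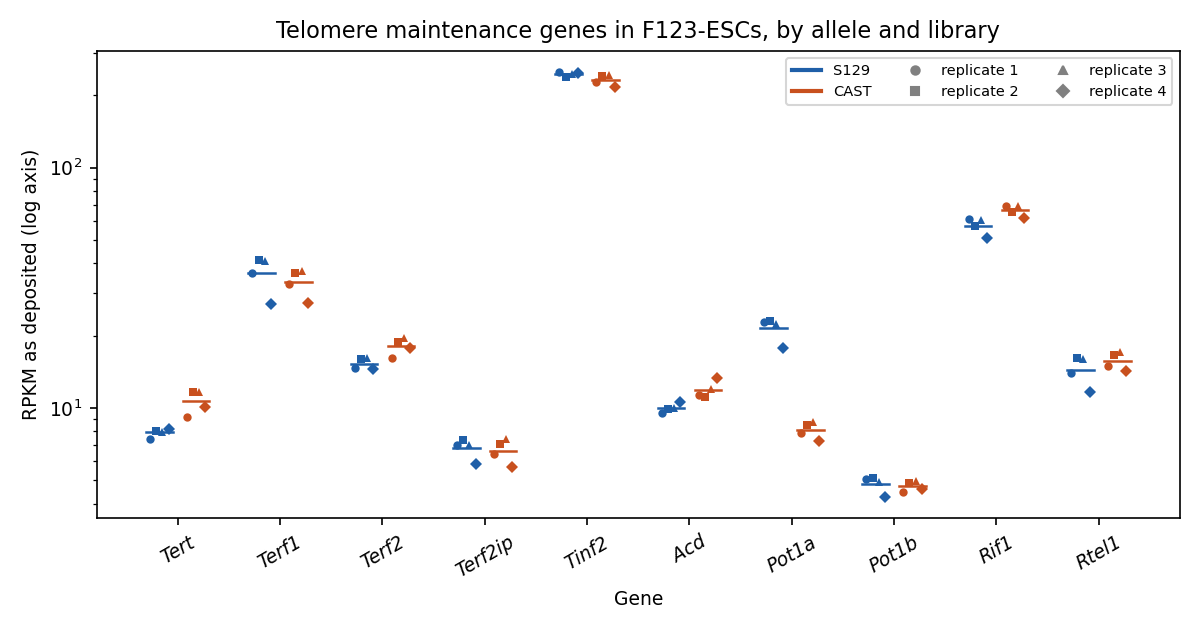
Deposited RPKM on a log axis for each of the 10 telomere maintenance genes, with S129 in blue and CAST in orange, a symbol for each of the 4 libraries and a line at the mean of an allele. Pot1a is the gene whose alleles stand farthest apart, at means of 21.5 and 8.10 RPKM.

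Tert encodes the reverse transcriptase of telomerase. It lies on chromosome 13 (ENSMUSG00000021611; 73626911 to 73649843 in mm10, plus strand). Its S129 allele had 7.45, 8.002, 7.97 and 8.20 RPKM in replicates 1 to 4, and its CAST allele had 9.15, 11.7, 11.6 and 10.1 RPKM. Every CAST value was above every S129 value, and the CAST allele was farther above in replicates 2 and 3 than in the other libraries. The mean of both alleles was 9.27 ± 0.715 RPKM (SD, n = 4 libraries). CAST was 1.34-fold higher, and its difference was -0.42 with a standard error of 0.064 (adjusted p = 0.00529 from limma, CAST higher in 4 of 4 libraries). From 380 to 764 reads stood behind each value. In single libraries 41.6% to 45.7% of these reads were S129 reads, and in replicate 3 the exact 95% binomial interval of the share was 38.9% to 44.4%, which covers counting error only. The median difference was -0.06 over the 483 genes tested on chromosome 13 and 0.06 over the 20 genes nearest to Tert.

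The sequence before the start of Tert is shown because Tert had the largest difference toward CAST of the 10 genes. It was taken from RefSeq (GRCm38.p6, chr13:73626661-73626910, plus strand), ends at the base before the start, and has GGGCGG, the letters of a GC box, in capitals on either strand.
Tert promoter: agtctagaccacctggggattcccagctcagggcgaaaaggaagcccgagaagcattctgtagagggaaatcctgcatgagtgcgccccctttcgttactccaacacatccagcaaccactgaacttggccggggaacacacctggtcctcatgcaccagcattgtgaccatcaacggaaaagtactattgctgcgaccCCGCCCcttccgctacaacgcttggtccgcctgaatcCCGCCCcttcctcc
Tert holds 2 such boxes. GGGCGG occurs on either strand in 32.7% of the 32851 promoters of this length, and in 4 of the 8 telomere genes with an entry (Tert, Rtel1, Pot1a and Pot1b). The E-box CACGTG, the letters bound by Myc and Max, occurs in 6.02% of the promoters and in 0 of these 8. A match of letters is a description only. The sequences shown here and below are those of the reference genome, and whether the S129 and CAST alleles carry the same letters was not examined.

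Terf1 and Terf2 encode TRF1 and TRF2, the shelterin proteins that bind double-stranded telomeric DNA. TRF1 is known for its part in telomere replication and length control, and TRF2 for keeping chromosome ends from being joined. Terf1 lies on chromosome 1 (ENSMUSG00000025925; 15805646 to 15844052, plus strand). In replicates 1 to 4 it had 36.3, 41.4, 40.8 and 26.9 RPKM on S129 and 32.9, 36.3, 37.3 and 27.3 RPKM on CAST. Replicate 4 was the lowest library on both alleles, and the ranges of the alleles overlapped. The S129 minus CAST difference of 0.11 did not pass the test (95% interval -0.01 to 0.24, adjusted p = 0.0996 from limma). S129 was higher in 3 of 4 libraries, with the exception of replicate 4, where the difference was -0.02. Without replicate 4 the difference was 0.15 and passed, with adjusted p = 0.0316 from limma. The test was also passed with whole reads in place of RPKM, at 0.17, so the direction held and the call depended on the setting.

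Terf2 lies on chromosome 8 (ENSMUSG00000031921; 107069400 to 107096547, minus strand). Its S129 allele had 14.6, 15.9, 16.1 and 14.5 RPKM, and its CAST allele had 16.2, 18.9, 19.6 and 17.7 RPKM. CAST was above S129 in each library, and the highest S129 value, in replicate 3, lay just under the lowest CAST value, in replicate 1. The difference was -0.24 (standard error 0.038, adjusted p = 0.00604 from limma), which is 1.18-fold toward CAST. The levels of the TRF proteins' genes differed more than their alleles did. The mean of both alleles was 34.9 ± 5.58 RPKM for Terf1 and 16.7 ± 1.14 RPKM for Terf2 (SD, n = 4), and Terf1 was higher in 4 of 4 libraries, by 1.05 ± 0.20 on the log2 scale (SD, n = 4). By the exact sign-flip test over libraries this gave p = 0.13, and 4 libraries can give no smaller p. Since reads without a SNP were not counted, a level set against that of another gene also reflects how many SNPs both hold.

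Terf2ip encodes RAP1, which is bound to telomeres through TRF2, and its gene also lies on chromosome 8 (ENSMUSG00000033430, 112011398 to 112020528, plus strand). The S129 allele had 6.9999, 7.39, 7.02 and 5.86 RPKM and the CAST allele 6.43, 7.05, 7.40 and 5.70 RPKM. Both alleles were lowest in replicate 4, and their ranges overlapped. The difference was 0.04 (95% interval -0.08 to 0.16, adjusted p = 0.488 from limma), with S129 higher in 3 of 4 libraries.

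Acd encodes TPP1, the shelterin subunit that recruits telomerase and holds POT1 in the complex. It is the third of these genes on chromosome 8 (ENSMUSG00000038000; 105695860 to 105701102, minus strand). It had 9.53, 9.89, 9.98 and 10.6 RPKM on S129 and 11.3, 11.1, 12.005 and 13.3 RPKM on CAST. The alleles did not overlap, and Acd was the only one of the 10 genes whose highest level was in replicate 4. CAST was 1.19-fold higher, at a difference of -0.25 (standard error 0.040, adjusted p = 0.00637 from limma, CAST higher in 4 of 4 libraries).

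Chromosome 8 as a whole was shifted toward CAST. The median difference over its 713 genes tested was -0.25, and 53.9% of them were called higher on CAST and 15.6% higher on S129, or 69.4% in either direction. The 20 genes nearest to Terf2 had a median of -0.30, those nearest to Acd -0.23 and those nearest to Terf2ip -0.15. With the median of the chromosome taken out, the difference of Terf2 was 0.01 (adjusted p = 0.838 from limma) and that of Acd was -0.001 (adjusted p = 0.986), so neither passed the test against the chromosome around it. The same step gave Terf2ip a difference of 0.29 toward S129 that passed the test (adjusted p = 0.00595 from limma). What shifts the chromosome was not tested.

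**Figure D2:**
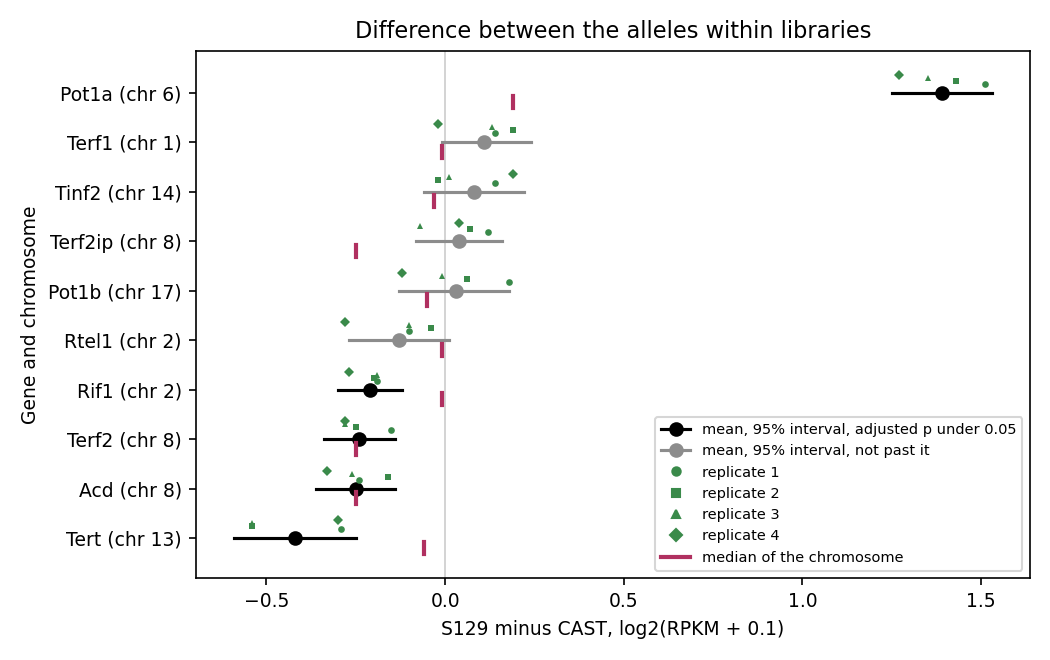
S129 minus CAST difference of each gene on the log2(RPKM+0.1) scale, with the mean and 95% interval from limma (black where adjusted p was under 0.05), the 4 libraries in green and the median of all genes tested on the same chromosome in red. Terf2 and Acd lie at the median of chromosome 8, -0.25, and Pot1a at 1.39 lies far from that of chromosome 6, 0.19.

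Pot1a and Pot1b encode proteins that bind the single-stranded overhang at the telomere end. Mice carry both genes where humans carry a single POT1. POT1a is known for repressing the damage response at telomeres and POT1b for limiting how far telomere ends are trimmed. Pot1a lies on chromosome 6 (ENSMUSG00000029676; 25743737 to 25809246, minus strand) and Pot1b on chromosome 17 (ENSMUSG00000024174; 55651951 to 55712628, minus strand). The coding sequences of both, 1923 bases each in GENCODE M21, were identical at 78.9% of the 1920 aligned bases. The longest identical run was 41 bases, and the fewest differing positions in any window of 150 bases, the length of a read, were 17. Exon bases outside the coding sequences were not aligned. The most alike stretch of 90 coding bases is shown as an example of how closely the genes match, with the 8 bases that differ in capitals. It starts at base 78 of both coding sequences, is spliced, and spans chr6:25778927-25794606 and chr17:55698545-55700038, both on the minus strand.
Pot1a coding: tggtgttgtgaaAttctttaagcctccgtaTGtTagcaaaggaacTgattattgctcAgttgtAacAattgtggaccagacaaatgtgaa
Pot1b coding: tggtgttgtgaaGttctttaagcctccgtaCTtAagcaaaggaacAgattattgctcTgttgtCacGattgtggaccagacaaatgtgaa
The promoters of the genes are shown beside them (RefSeq, GRCm38.p6, minus strand, chr6:25809219-25809468 and, for the first of 2 starts listed for Pot1b, chr17:55712637-55712886), with GGGCGG and the telomere repeat TTAGGG in capitals on either strand.
Pot1a promoter: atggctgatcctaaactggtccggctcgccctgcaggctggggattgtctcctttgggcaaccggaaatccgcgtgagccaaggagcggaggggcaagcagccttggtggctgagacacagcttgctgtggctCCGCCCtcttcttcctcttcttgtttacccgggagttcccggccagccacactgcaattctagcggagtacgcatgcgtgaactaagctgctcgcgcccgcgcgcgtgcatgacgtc
Pot1b promoter: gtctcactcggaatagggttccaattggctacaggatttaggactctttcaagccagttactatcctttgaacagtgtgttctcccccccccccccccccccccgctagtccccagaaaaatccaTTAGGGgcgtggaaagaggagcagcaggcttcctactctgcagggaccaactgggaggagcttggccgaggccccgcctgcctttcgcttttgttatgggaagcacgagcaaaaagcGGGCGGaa
TTAGGG occurs in 9.32% of all promoters of this length and, among the 8 telomere genes with an entry, in Pot1b only. These matches too are in the reference sequence and were not examined on the S129 and CAST alleles.

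Pot1a had 22.7, 23.0, 22.4 and 17.7 RPKM on S129 in replicates 1 to 4 and 7.88, 8.48, 8.72 and 7.31 RPKM on CAST. Every S129 value was more than every CAST value, and replicate 4 was the lowest on both alleles. S129 was 2.62-fold higher, with a difference of 1.39 (standard error 0.052, 95% interval 1.25 to 1.53, adjusted p = 7.11e-05 from limma, S129 higher in 4 of 4 libraries). Between 385 and 2056 reads stood behind each value. The S129 share of the reads was 74.8%, 73.9%, 72.7% and 71.6% in replicates 1 to 4, with exact 95% binomial intervals of 73.2% to 76.4% in replicate 1 and 69.2% to 74.0% in replicate 4. Chromosome 6 had a median difference of 0.19 over 636 genes, 51.4% of which were called higher on S129 and 67.5% in either direction. With this median taken out, the difference of Pot1a was 1.2 (adjusted p = 0.000185 from limma). The 20 nearest genes had a median of 0.20 and ran from -0.16 to 3.26, and 41 other genes of the chromosome were as far toward S129 as Pot1a. Among autosomal genes tested, 965, or 7.50%, had an absolute difference at least that of Pot1a.

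Pot1b had 5.07, 5.11, 4.91 and 4.25 RPKM on S129 and 4.47, 4.89, 4.96 and 4.62 RPKM on CAST. The alleles overlapped, with S129 higher in replicates 1 and 2 and CAST in replicates 3 and 4. The difference was 0.03 (95% interval -0.13 to 0.18, adjusted p = 0.705 from limma), and without replicate 1 it was -0.02, so no direction can be given. The difference between the alleles was larger for Pot1a than for Pot1b in 4 of 4 libraries, by 1.36 ± 0.019 on the log2 scale (SD, n = 4). By the exact sign-flip test over libraries this gave p = 0.13, and 4 libraries can give no smaller p. As the mean of both alleles, Pot1a had 14.8 ± 1.52 RPKM and Pot1b 4.78 ± 0.253 RPKM (SD, n = 4). Per deposited length, Pot1a stood 4.43-fold above Pot1b on S129 and 1.71-fold above it on CAST. Per length of all annotated exons, it stood 2.42-fold above Pot1b on S129, with 7.80 ± 0.906 against 3.21 ± 0.264 RPKM. On CAST the order turned under this length, with 2.94 ± 0.23 RPKM for Pot1a and 3.14 ± 0.152 RPKM for Pot1b (SD, n = 4), and Pot1b was higher in 4 of 4 libraries. Which gene is higher on CAST thus depends on the length used. All these ratios between the genes also reflect how many SNPs each holds.

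Tinf2 encodes TIN2, the shelterin subunit that links TRF1, TRF2 and TPP1. It lies on chromosome 14 (ENSMUSG00000007589; 55674689 to 55681820, minus strand). The S129 allele had 249.7, 237, 244 and 246 RPKM and the CAST allele 226, 241, 242 and 215 RPKM. The alleles overlapped, and S129 was higher in 3 of 4 libraries. The difference was 0.08 (95% interval -0.06 to 0.22, adjusted p = 0.234 from limma). With 238 ± 5.07 RPKM (SD, n = 4) as the mean of both alleles, Tinf2 had the highest deposited level of the 10 genes, above 97.9% of the 20243 genes with a value above 0.

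This rank rests on the length of 435 bp that divides its reads, which is that of a fragment without its 5′ end, the first Tinf2 transcript of GENCODE M21. The coding part of this fragment, 221 bases spliced from chr14:55674903-55680075 on the minus strand, is shown because its transcript sets the level of Tinf2.
Tinf2 coding part: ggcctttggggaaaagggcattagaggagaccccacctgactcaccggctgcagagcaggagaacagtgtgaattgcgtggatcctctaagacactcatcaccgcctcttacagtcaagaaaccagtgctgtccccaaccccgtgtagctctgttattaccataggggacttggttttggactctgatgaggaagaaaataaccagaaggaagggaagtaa
The longest coding transcript of Tinf2 has 2956 bp, and with it the level was 35.0 ± 0.746 RPKM (SD, n = 4). With 4938 bp, the length of all its annotated exons, the level was 20.9 ± 0.447 RPKM. From 1567 to 3125 reads stood behind each value. Exons of Gmpr2 on the opposite strand share 31.2% of the exon bases of Tinf2, as those of Carmil2 share 33.3% of Acd. The libraries were made with a stranded kit, but whether reads were counted by strand is not given in the sources used here. Reads of such pairs therefore cannot be told apart in the deposited values. Differences between alleles do not depend on this length except through the added 0.1.

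Rif1 encodes a large protein known for setting replication timing and steering the repair of broken ends, which was first found at telomeres in yeast. It lies on chromosome 2 (ENSMUSG00000036202; 52072832 to 52122383, plus strand). It had 60.8, 57.2, 60.3 and 50.9 RPKM on S129 and 69.2, 65.6, 69.0 and 61.6 RPKM on CAST. The alleles did not overlap, and both were lowest in replicate 4. CAST was 1.16-fold higher, at a difference of -0.21 (standard error 0.033, adjusted p = 0.00562 from limma, CAST higher in 4 of 4 libraries). The median over the 1030 genes tested on chromosome 2 was -0.01, and with it taken out the difference of Rif1 was -0.20 (adjusted p = 0.00724 from limma). The values rest on 7543 to 16401 reads each, the most of the 10 genes. Without pairing the alleles by library, Rif1 did not pass the test (adjusted p = 0.0641 from limma).

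Rtel1 encodes a helicase that unwinds the loop and other folded structures of telomeric DNA, and it lies near the end of chromosome 2 (ENSMUSG00000038685; 181319739 to 181356616, plus strand). It had 14.0, 16.1, 16.0 and 11.6 RPKM on S129 and 15.0, 16.6, 17.1 and 14.2 RPKM on CAST. CAST was higher in 4 of 4 libraries, but the ranges overlapped and the difference of -0.13 did not pass the test (95% interval -0.27 to 0.01, adjusted p = 0.0875 from limma). In replicate 4 the difference was -0.28, and in the other libraries it ran from -0.10 to -0.04. Replicate 2 had 1783 S129 and 1763 CAST reads, so its direction rests on the scaling by column totals. The difference was -0.08 with whole reads and -0.03 with the autosomal sums of all columns made equal. Reads leaned to S129 and RPKM to CAST also for Terf1 in replicate 4, Tinf2 in replicate 2 and Pot1b in replicate 3.

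Over the list, the alleles did not overlap for 5 of the 10 genes, against 45.6% of the genes tested. S129 lay above CAST without overlap in 1 gene, against 23.3%, and CAST above S129 in 4, against 22.2%. These shares include X-linked genes, while all 10 genes lie on autosomes, and shares over autosomal genes alone were not computed. The calls of 5 genes depended on the scaling. With the autosomal RPKM of every column brought to the same sum, the median difference of all genes moved from -0.0034 to 0.10, and the calls moved from 4187 higher on S129 and 4182 higher on CAST to 5121 and 3072. Under this scaling Pot1a stayed higher on S129 at 1.49 and Tert higher on CAST at -0.32 (adjusted p = 0.014 from limma). Rif1 at -0.11, Terf2 at -0.14 and Acd at -0.15 kept their direction but no longer passed, and Terf1 at 0.21 and Tinf2 at 0.18 passed.

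In the order of the deposited levels, Tinf2 was followed by Rif1 at 61.8 ± 4.04 RPKM, Terf1 at 34.9 ± 5.58 RPKM, Terf2 at 16.7 ± 1.14 RPKM, Rtel1 at 15.1 ± 1.72 RPKM, Pot1a at 14.8 ± 1.52 RPKM, Acd at 10.9 ± 0.703 RPKM, Tert at 9.27 ± 0.715 RPKM, Terf2ip at 6.73 ± 0.677 RPKM and Pot1b at 4.78 ± 0.253 RPKM (SD, n = 4 libraries each, mean of both alleles). Neighbours in this order were counted as separated when their ranges over the libraries did not overlap and the order was the same in each library. Of the 9 neighbouring pairs, 7 were separated, the exceptions being Terf2 with Rtel1 and Rtel1 with Pot1a. Per length of the longest coding transcript, Rif1 was the highest, Tinf2 and Terf1 were not separated at 35.0 and 34.9 RPKM, and Tert at 5.73 ± 0.441 RPKM came after Terf2ip without being separated from it. The length behind the deposited Tert value, 2663 bp, is that of a transcript with a retained intron, and its longest coding transcript has 4313 bp. Per length of all annotated exons, Rif1 at 50.1 RPKM and Tinf2 at 20.9 RPKM led and Pot1b at 3.18 RPKM was again the lowest. Under these lengths 5 of 9 neighbouring pairs were separated, so the middle of the order is not fixed by these data. Since reads without a SNP were not counted, every place in the order, also at its ends, further reflects how many SNPs a gene holds.

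**Figure D3:**
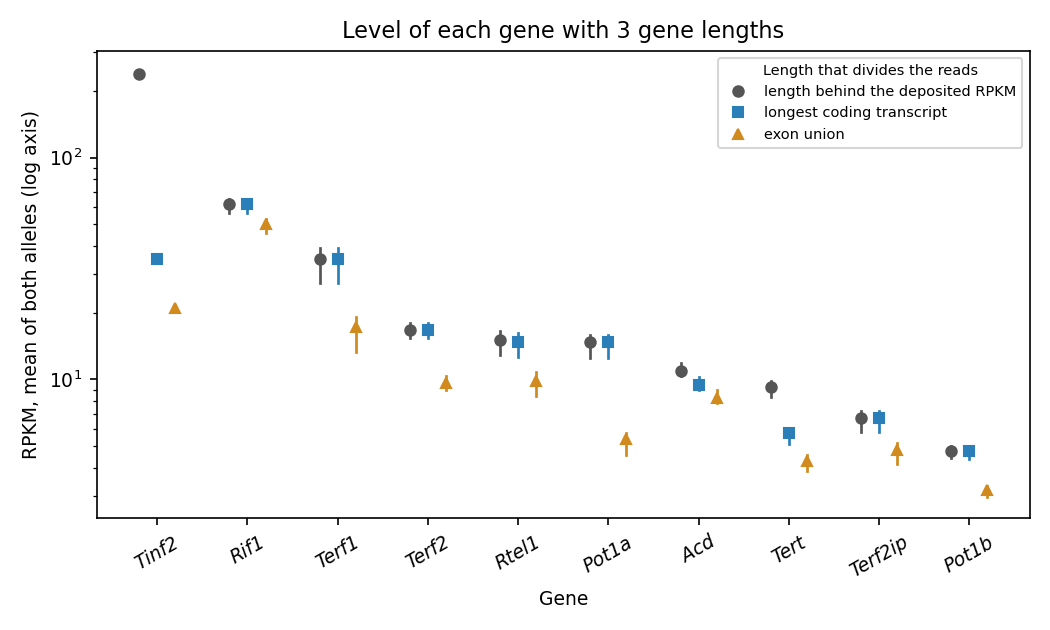
Mean of both alleles for each gene on a log axis, in RPKM, with the length behind the deposited value (grey), the longest coding transcript (blue) and all annotated exons (orange); lines run from the lowest to the highest library. Tinf2 drops from 238 to 35.0 and 20.9 RPKM with its longer lengths, and Pot1b stays the lowest.

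Among the libraries, replicate 4 held the lowest level of 7 of the 10 genes, where it held the lowest level of 53.5% of the genes tested, and it is also the library with the fewest reads. Terf1 was 27.7% lower in replicate 4 than the mean of the other libraries, or -0.47 on the log2 scale, Pot1a was -0.31 and Rtel1 and Terf2ip were each -0.29. The median of the genes tested was -0.13. Tert at -0.02 and Tinf2 at -0.06 were close to their level in the other libraries, and Acd was higher by 0.17. The part of depth in these differences was not tested.

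Of 37 other telomere genes, 35 could be tested, of which 11 were called higher on S129, where 31.4% of all genes tested were, and 13 higher on CAST, where 31.3% were. The number higher on CAST was 8 without replicate 3 and 7 with equal autosomal sums. Both X-linked genes of this list, Dkc1, which encodes the pseudouridine synthase of telomerase RNA particles, and Atrx, which encodes a remodeller that deposits histone H3.3 at telomeres, had traces only on CAST. Dkc1 had means of 96.3 RPKM on S129 and 0.0516 RPKM on CAST, and Atrx had 41.0 and 0.0446 RPKM. Male cells of this cross carry an X chromosome from S129 only. On the autosomes 9 of 33 genes were called higher on S129, against 28.9% of all autosomal genes, and 13 higher on CAST, against 32.5%. In either direction 66.7% were called, against 61.4%. Their median difference was -0.08.

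The CST complex, which binds single-stranded DNA and ends the action of telomerase, had a member on each side. Ctc1 was higher on S129 by 0.29 (adjusted p = 0.00131 from limma), Stn1 was higher on CAST, at -0.26 (adjusted p = 0.00913), and Ten1 at 0.06 did not pass the test. Among genes of the telomerase particle and its assembly, 5 of 12 tested were called higher on S129, with Dkc1 among them, and 4 higher on CAST, against 31.4% and 31.3% of all genes tested. Terc, the RNA template of telomerase, was listed at 0 in all 8 columns. The libraries held polyA-enriched RNA and only reads over a SNP were counted, so this value does not show that Terc was absent. Of the proteins that bind the telomerase RNA beside dyskerin, Nop10 had a mean of 406 RPKM and Nhp2 of 553 RPKM, and both had a difference of 0.08 that did not pass. Gar1, also of this particle, was higher on S129 by 0.30 (adjusted p = 0.0153 from limma), while its chromosome 3 had a median of -0.74, and by 1.04 with this median taken out (adjusted p = 0.000435). Wrap53, which brings telomerase to Cajal bodies, was higher on S129 by 0.38 and Ruvbl2, an assembly ATPase, by 0.13, while its partner Ruvbl1 at -0.02 did not pass. With the median of chromosome 6 taken out, Ruvbl1 was at -0.21 and passed toward CAST (adjusted p = 0.0235 from limma).

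Parn, a nuclease that matures telomerase RNA, was higher on S129 by 0.41, on chromosome 16 with a median of 0.69. With this median taken out, Parn was at -0.28 (adjusted p = 0.0111 from limma), so its direction turned. Naf1, an assembly factor of the particle, was higher on CAST with a difference of -0.86 and stayed at -0.61 without the median of chromosome 8 (adjusted p = 0.000489 from limma). Pinx1, an inhibitor of telomerase, was at -0.41, Smg6 at -0.25 and Tep1, which binds the telomerase RNA, at -0.22, all called higher on CAST.

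In the group of end processing, repair and signalling, 3 of 15 genes were called higher on S129, where 28.9% of autosomal genes were, and 8 higher on CAST, where 32.5% were. Dclre1b, which encodes the nuclease Apollo that trims newly copied telomere ends, had the largest difference of the autosomal genes of this list, -1.40 (adjusted p = 0.000132 from limma). The median of its chromosome 3 was -0.74, and without it Dclre1b was at -0.66 (adjusted p = 0.00151). Slx4, a scaffold of nucleases, was higher on S129 by 0.66 on chromosome 16, and without that median it was at -0.03 (adjusted p = 0.532 from limma). Of the genes for telomere chromatin and length, Daxx, the partner of ATRX, was higher on S129 by 0.44, and Zbtb48 at -0.18 did not pass. The meiotic telomere complex had levels of 5.61 ± 0.766 RPKM for Terb2, 1.53 ± 0.213 RPKM for Majin and 0.424 ± 0.0934 RPKM for Terb1 (SD, n = 4), and none of its 2 genes tested passed.

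**Figure D4:**
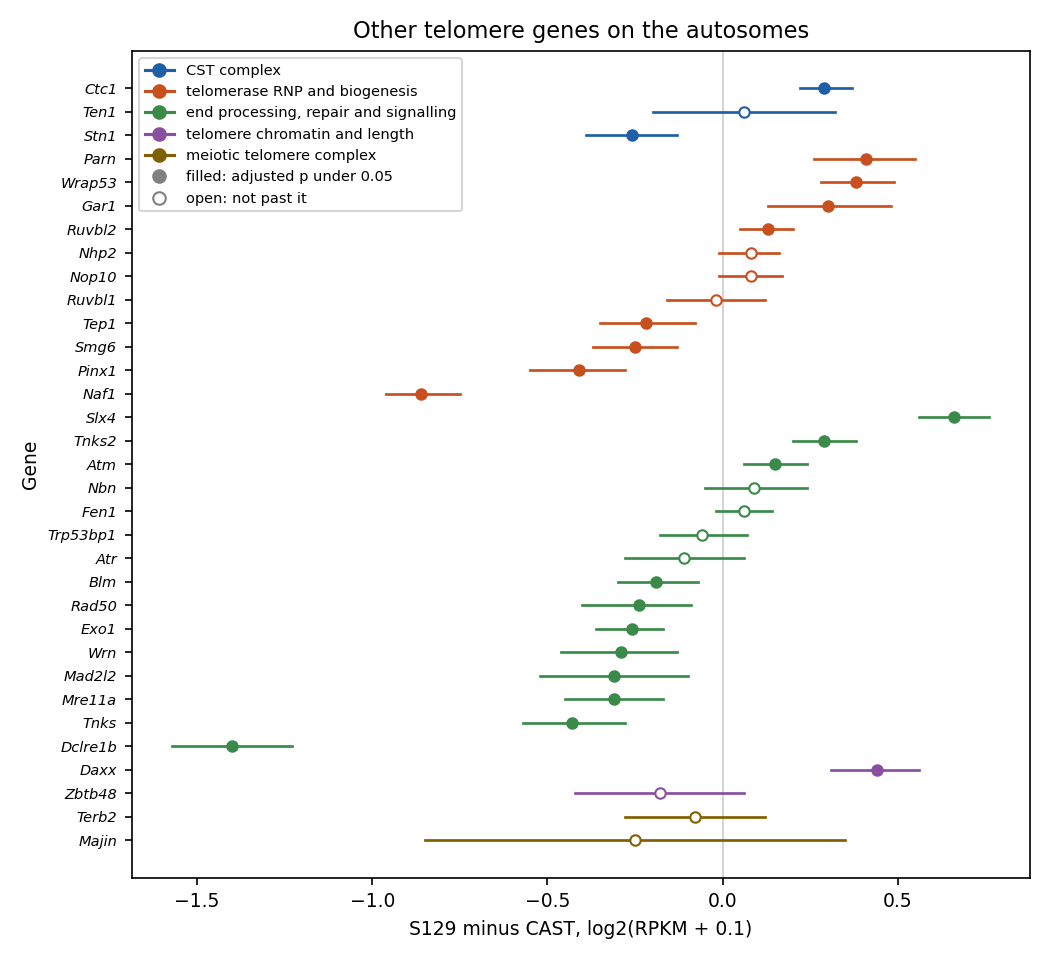
S129 minus CAST difference on the log2(RPKM+0.1) scale for the 33 autosomal genes of the other telomere list that could be tested, with 95% intervals from limma, coloured by group and filled where adjusted p was under 0.05. Dclre1b at -1.40 and Naf1 at -0.86 lie farthest toward CAST and Slx4 at 0.66 farthest toward S129.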

How the data were processed

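RNAseq of untreated F123-ESCs was examined in 4 libraries. The authors removed ribosomal RNA reads, trimmed with Trimmomatic (version 0.40, per the labels), aligned with STAR to mm10 masked at SNPs, divided reads into S129 and CAST by SNPsplit and deposited RPKM per gene, allele and library. The counting program and annotation are not given in the sources used here. Columns were matched to libraries by allele and number, the first S129 column being written with a minus sign; 0 columns belonged to other samples. Authors' averages over libraries were not used.

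Of the 24026 genes, 23995 were found in GENCODE M21 by identifier. Totals, lengths and reads were recovered from the steps of the RPKM; 99.5% of 20243 genes above 0 were whole within 0.02 reads. For Pot1b, 3499 bp is the smallest length that fits. Genes with a summed RPKM of at least 1 were tested by limma (version 3.58.1, R 4.3.3) on log2(RPKM+0.1) differences within libraries, with Benjamini-Hochberg adjustment over all 13341 genes. On this scale differences of low genes are understated. Both alleles come from one library, which gives the pairing; deviations from the allele means correlated at 0.186 to 0.287 for equal numbers and -0.278 to 0.260 for others (9858 genes). P-values measure the spread between these libraries, which may be technical. Exact sign-flip tests were two-sided. Scripts were tested on simulated data.

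All 10 genes are named. Of 37 other telomere genes, those of the CST and telomerase groups and others called with a difference of at least 0.5 are named. Daxx, Zbtb48, Terb1, Terb2 and Majin were added after their values were seen. The 10 genes and all lists were chosen with earlier results of these data known. Alternatives were another pseudocount or filter, scaling, whole reads, no pairing, chromosome medians taken out, a variance trend, other lengths and each library left out. Protein sequences were not used here.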

Additional observations from a re-analysis of the deposited data

Results flagged for a closer look

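Dixon's criterion was applied to 40 quantities, the level, both alleles and the difference of each gene. In 3 of them a library stood apart, each time replicate 4. By chance about 1 in 20 independent groups of libraries would show this, which is 2 of 40. The quantities are not independent, since the level and the difference of a gene are computed from its alleles. The count of 3 therefore cannot be weighed against 2. The level of Pot1a was 12.5 RPKM in replicate 4 and 15.3 to 15.8 RPKM in the others. The S129 allele of Pot1a was at 17.7 RPKM in replicate 4 and at 22.4 to 23.0 RPKM in the others. The S129 minus CAST difference of Rif1 was -0.27 in replicate 4 and -0.20 to -0.19 in the others. Replicate 4 has the fewest reads, and the part of depth in these values was not tested.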

How the results depend on the processing

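Of the 10 telomere genes, 1 was called higher on S129 and 4 higher on CAST. The counts were 3 and 1 with equal autosomal sums, 2 and 2 with chromosome medians taken out, 2 and 4 with whole reads, and 2 and 4 with a variance trend. Among all 13341 genes tested, the calls were 4187 and 4182 in the main test and 5121 and 3072 with equal autosomal sums. They were 3934 and 3916 with chromosome medians taken out, 4664 and 3571 of 13337 with whole reads, and 4311 and 4369 with a variance trend. Leaving out each library gave 1 to 2 higher on S129, with 2 only without replicate 4, and 4 higher on CAST in each case. For all genes tested, this gave 3466 to 3955 higher on S129 and 3380 to 3949 higher on CAST. Without the replicate block, which pairs the alleles by library, the counts of the 10 genes were 1 and 3, with no other call of these 10 genes changed than that of Rif1. The counts of all genes tested were then 3292 and 3133. For the 35 other telomere genes tested, the number higher on CAST moved from 13 to 7 with equal autosomal sums, and ranged from 8 to 11 with a library left out, 8 being without replicate 3. For all genes tested it moved from 4182 to 3072 with equal autosomal sums and to 3416 without replicate 3. The difference of Terf2 turned to 0.01 with the chromosome median taken out, and that of Pot1b to -0.02 without replicate 1, in a range of -0.02 to 0.08 with a library left out. The cause was not tested, except that taking out a median of -0.25 moves Terf2 by construction. Pot1a and Tert kept direction and call under all 13 alternatives. Of 60 levels under other lengths, alleles, scaling or the median, 25 moved by more than the SD between libraries, each under an exchange of length or allele; none of the 40 with a library left out did. The longest coding transcript, and both other lengths for the ratio of Pot1a to Pot1b, were added after the data were seen. Depth limits Pot1b most, with 259 to 510 reads per value.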
